A study of Xenopus laevis with 6 samples.

Results

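Aquaporins are membrane channels that let water cross, and some of them, the aquaglyceroporins, also pass glycerol and other small solutes. In frogs they are best known from skin, bladder and kidney. The members described here are the rows of the deposited gene table whose symbol, without the suffix L or S that marks the homeologs of this allotetraploid frog, is aqp1, aqp3, aqp4, aqp5, aqp7, aqp8, aqp9, aqp10, aqp11 or aqp12. The rule found 14 rows among 49281 genes, 9 of them L copies and 5 S copies. They belong to 9 of the 10 symbols, since no row is named aqp12 alone. These genes were put forward with the fold changes of these same libraries in view, so their differences between the groups are a description and support nothing.

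The libraries come from wild type Xenopus laevis animal pole explants, the cells at the top of the blastula, which turn into epidermis when cultured alone. Explants of the first group were kept in medium with K02288, which blocks the type I receptors of BMP ligands, and CHIR99021 (CHIR in the labels), a GSK3 inhibitor that switches on Wnt signalling, beginning at stage 9 and ending at stage 17. The labels call them reprogrammed to neural crest, the migratory cell population of the vertebrate embryo. Explants of the second group received DMSO over the same stages and are labelled epidermal. Bulk RNA sequencing gave 3 libraries per group, called a, b and c here after the table's columns and given in that order wherever 3 values stand together, and no label says whether the libraries came from separate clutches, so the spread between them may be technical.

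Gene reads per library numbered 35187635 to 36618892 for K02288/CHIR and 33706389 to 43155031 for DMSO. Summed over 18 rows of 9 neural crest symbols, the level was 101555 to 114378 normalized counts in K02288/CHIR libraries and 641 to 900.1 in DMSO libraries. Over 14 rows of 7 epidermal symbols it was 46818 to 200495 in K02288/CHIR libraries and 776608 to 892176 in DMSO libraries. Crest markers were thus high where the label says neural crest, and epidermal markers where it says epidermal. K02288/CHIR library a stood apart, with the 200495 of that range, against 48314 in library b and 46818 in library c. In bulk tissue, fewer cells of a type and less RNA per cell cannot be told apart.

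The family fell into a few genes with reads and many without. Of the 14 members, 6 had no read in any library: aqp4.S, both copies of aqp5, both copies of aqp7 and aqp8.L. Aqp5 is a water channel of secretory glands in mammals, aqp7 a glycerol channel of fat cells and aqp8 a channel that also passes hydrogen peroxide. A count of 0 among 221751550 gene reads allows at most 0.0135 reads per 1000000 gene reads for each, as far as counting error goes. A further 4 had 1 or 2 reads over the 6 libraries: aqp1.S had 2 reads, aqp4.L 1, aqp9.L 1 and aqp10.L 2. Then came aqp1.L with 21 reads. Only aqp3.L, aqp3.S and aqp11.L reached a mean of 10 normalized counts, the level from which genes were tested. A normalized count is a read number divided by the size factor of the library, and it is not corrected for transcript length, so values are compared between libraries and not between genes.

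Of these 3 members, 2 were higher and 1 was lower in K02288/CHIR explants by limma with an adjusted p under 0.05. Across all 22932 genes tested, 55.8% passed by the same rule, 26.1% higher and 29.7% lower, so passing the threshold was common in this comparison. For the members, and for the pair XB5993457 and mip.S described further on, folds and their SE are given without p-values, because the genes were picked from this contrast or passed the filter only through the group where they were high. Neither aqp3 copy would have reached the mean filter on its DMSO libraries, so both passed through the group in which they were high. The groups did not overlap for any of the 3, as for 64.9% of all genes tested.

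**Figure D1:**
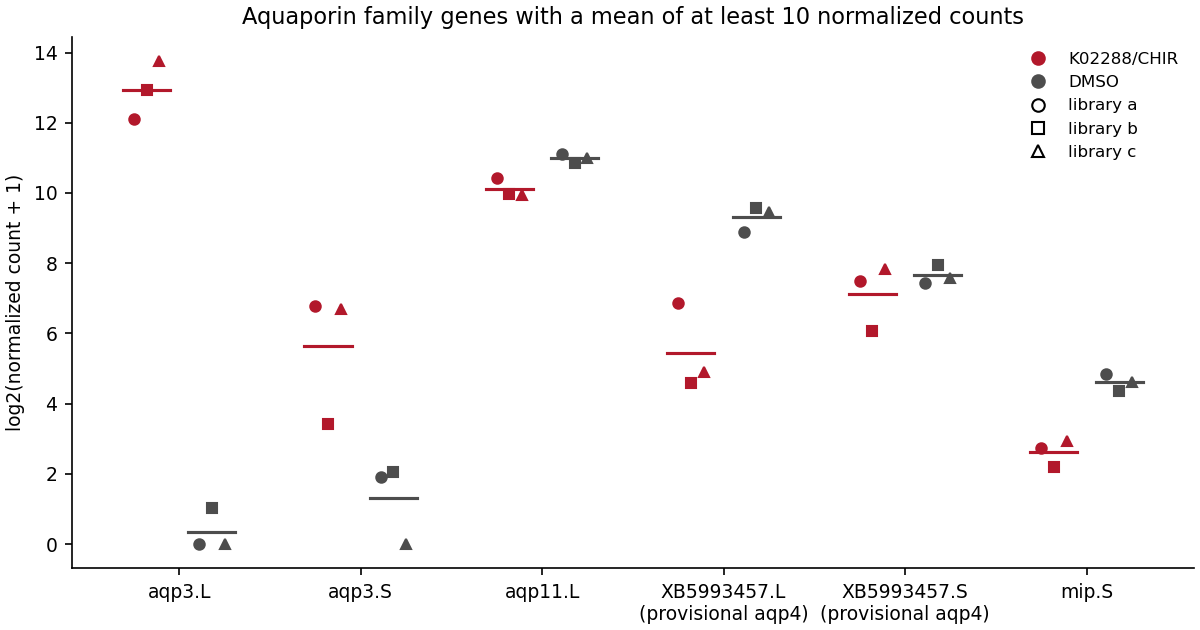
Levels of the 6 tested genes of the aquaporin family in log2(normalized count + 1), with K02288/CHIR libraries in red to the left of DMSO libraries in grey. Symbols mark the libraries and bars the group means. The aqp3.L points of K02288/CHIR libraries lie far above DMSO, those of aqp11.L, XB5993457.L and mip.S lie below DMSO, and those of XB5993457.S overlap with DMSO.

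Among the aquaglyceroporins, aqp3.L had many reads in each K02288/CHIR library and was all but absent in DMSO explants. Aqp3 passes water and glycerol and sits in the basal layers of mammalian epidermis. It had 4376, 7797 and 13903 normalized counts in K02288/CHIR libraries, against 0, 1.04 and 0 in DMSO libraries. All 3 treated libraries were high and differed among themselves, and a single read in DMSO library b was the only one in the vehicle group. In reads per 1000000 gene reads the treated libraries held 130, 239 and 414.

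Because the DMSO group held 1 read, the size of the rise is loosely bound. The 27989 treated reads against 1 gave a ratio of 24785 (95% exact binomial interval 4448 to 979007). This interval, like those of the other read ratios below, covers counting error only and not the spread between libraries. The ratio was 15362 without DMSO library a, and aqp3.L was at least 5477-fold higher without DMSO library b, taking 3 reads over the group as the floor. Fitted by limma on log2(value + 1), where changes of genes near 0 come out too small, the log2 fold was 12.59 ± 0.50 (SE, n = 3 libraries per group). In this fit it was the 3rd highest fold of 22932, but the order at the top depends on the method. By edgeR the log2 fold of foxd3.S, 14.89, was above that of aqp3.L, 14.17, while by limma foxd3.S was lower, at 11.84. The authors' deposited table gives a log2 fold of 14.49 ± 1.28 (SE) for this gene.

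The S copy of aqp3 moved the same way, with far fewer reads. It had 109, 9.78 and 103 normalized counts in K02288/CHIR libraries and 2.76, 3.11 and 0 in DMSO libraries. Treated library b, with 11 reads, lay near the DMSO libraries and far below the other treated ones, yet above every DMSO library. Over the groups, 235 treated and 6 DMSO reads gave a ratio of 34.7 (95% exact binomial interval 15.7 to 95.5). That interval leaves out the spread between libraries, and the treated libraries held 116, 11 and 108 reads. The log2 fold was 4.32 ± 1.06 (SE, n = 3 per group). Leaving out treated library b gave a fold of 5.43, and leaving out DMSO library c, which had no aqp3.S read, a fold of 3.67.

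The order of the treated libraries differed between the copies: library b held the least aqp3.S and the middle value of aqp3.L. Summed over 6 rows of the symbols pax8, lhx1, pax2 and nphs1, chosen as markers of the larval kidney, where frog aquaporins act, the level was 283, 26.7 and 142 in K02288/CHIR libraries and 4.94 to 12.43 in DMSO libraries. Pax8, lhx1 and pax2 are also active in the ear placode and hindbrain. The sum was thus also lowest in library b among the treated libraries. So were the sums over 4 endoderm marker rows, at 522, 329 and 845 in K02288/CHIR libraries and 905 to 1965 in DMSO libraries, and over 6 notochord marker rows, at 215, 183 and 313 in K02288/CHIR libraries and 22.2 to 546 in DMSO libraries. Muscle, blood and neural plate marker sums were highest in library b among the treated libraries. Of the 3 kidney marker rows tested, 3 were higher in K02288/CHIR explants, beside 26.1% of all genes tested. They reached the mean filter only through that group, so the direction of these calls was fixed in advance. In DMSO libraries 3 rows, pax8.S and both lhx1 copies, had no read. The part of such cells in the aqp3.S values was not tested.

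L reads made up 97.6% of all aqp3 reads in K02288/CHIR library a (95% Wilson interval 97.1% to 98.0%), 99.9% in b and 99.3% in c. DMSO libraries a and b held 3 and 4 aqp3 reads in all and DMSO library c none, too few for a share to be relied on. The read counter set reads aligned to more than 1 place aside, 4.93% to 11.1% of the reads of a library, and the lengths of the copies are not known here, so the split between L and S is uncertain.

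**Figure D2:**
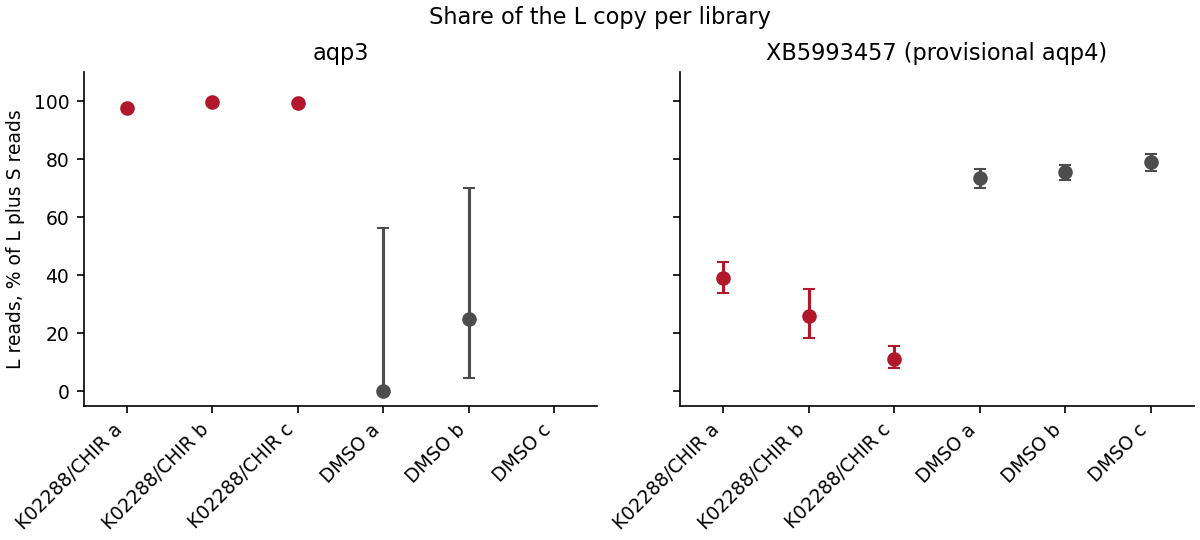
Reads of the L copy as a percentage of L plus S reads for aqp3 and for the gene pair XB5993457, with K02288/CHIR libraries in red to the left of DMSO in grey and 95% Wilson intervals as bars. The aqp3 share lies above 97% in the treated libraries and DMSO library c has no aqp3 read. The aqp3 points of DMSO libraries a and b, at 0% and 25%, rest on 3 and 4 reads, too few to be relied on. For XB5993457 the share lies at 11.2% to 39.2% in treated libraries and at 73.4% to 79.0% in DMSO libraries.

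Next to aqp3, aqp7 had no reads and the tested genes had log2 folds between -2.05 and 1.00. In the RefSeq gene table of assembly Xenopus_laevis_v10.1, used here only for gene order, the other aquaglyceroporin gene aqp7 lies next to aqp3 on both homeologous chromosomes, and neither aqp7.L nor aqp7.S had a read. On the other side of aqp3.L is nol6.L, a gene of ribosomal RNA processing. It had 7014, 6353 and 7425 normalized counts in K02288/CHIR libraries and 3740, 3059 and 3631 in DMSO libraries, a log2 fold of 1.00 ± 0.13 (SE; limma adjusted p = 0.000849). The next gene, ube2r2.L, which encodes a ubiquitin-conjugating enzyme, was at 684 ± 92.0 in K02288/CHIR and 804 ± 75.1 in DMSO libraries (SD, n = 3) and did not pass (limma adjusted p = 0.251). On the far side of aqp7.L, tpgs2.L, a subunit gene of a tubulin-modifying complex, fell to 36.6 ± 6.57 in K02288/CHIR, against 155 ± 31.1 in DMSO. Near aqp3.S, LOC108707357 had 1 read in each group, and the ube2r2 row at 495 ± 116 in K02288/CHIR and 518 ± 96.8 in DMSO did not pass (limma adjusted p = 0.814). These neighbours were looked up after the aquaporin values were seen.

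**Figure D3:**
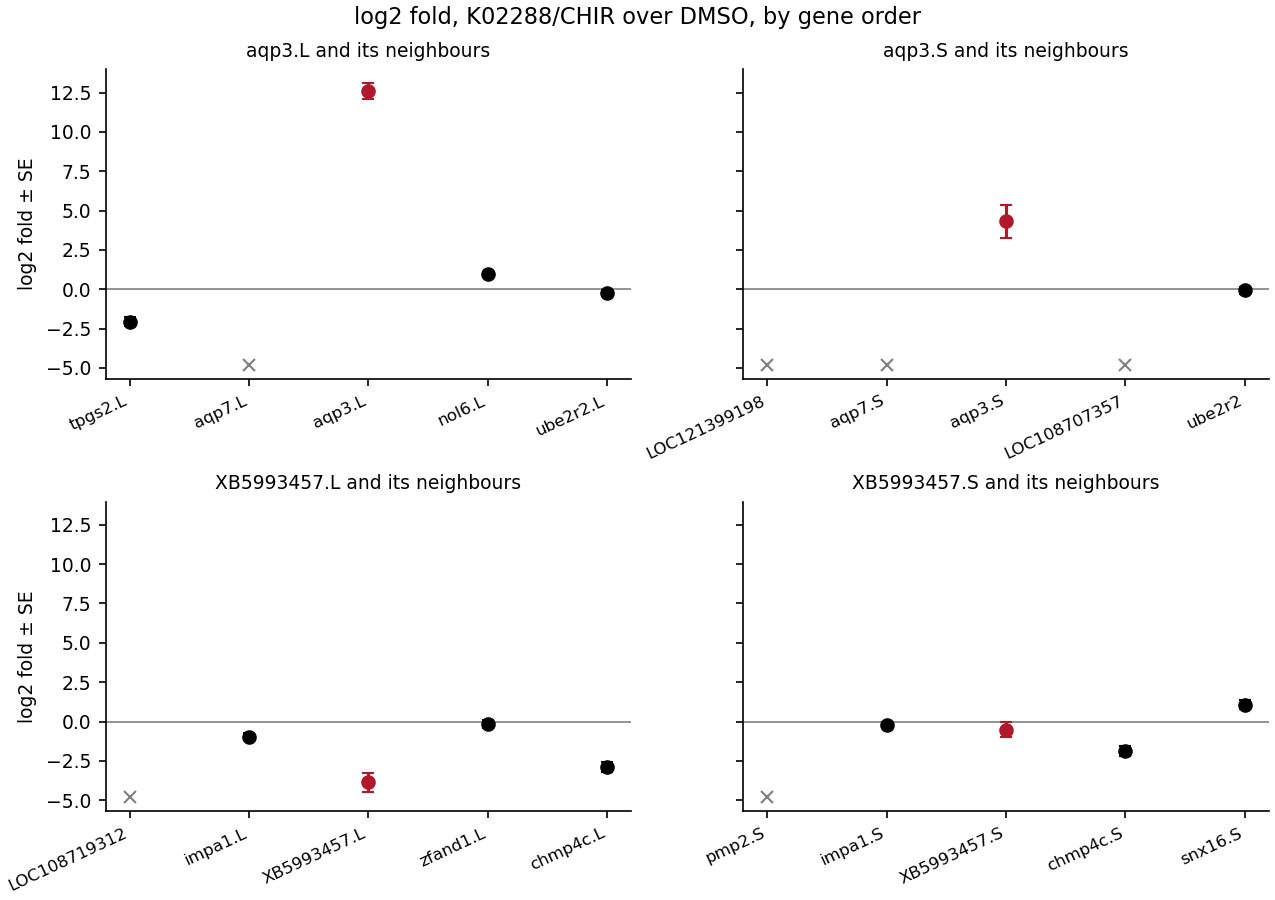
log2 fold of K02288/CHIR over DMSO, with SE bars, for 4 aquaporin family genes in red and the protein-coding genes next to them in black, in RefSeq gene order. Grey crosses at the foot of a panel mark genes that were not tested or have no row. The red aqp3.L and aqp3.S points stand above their neighbours, while XB5993457.L, chmp4c.L and impa1.L lie below 0, zfand1.L lies near 0 and snx16.S, near XB5993457.S, lies above 0.

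Outside the family, the genes whose centred log2(normalized count + 1) profile over the 6 libraries lay closest to that of aqp3.L were xa-1.L, LOC108696795 and foxd3.S, with root mean square differences of 0.57, 0.66 and 0.81. Foxd3 is a transcription factor of early neural crest, and the files give no name for LOC108696795. It had 6842, 28266 and 15470 normalized counts in K02288/CHIR libraries, against 0.918, 1.04 and 0 in DMSO libraries, so its highest library was b where that of aqp3.L was c. The closest gene, xa-1.L, was also highest in library b, at 3906, 20257 and 10787 in K02288/CHIR libraries. foxd3.S stood at 4674, 3129 and 3372 there, highest in library a, where aqp3.L was lowest among the treated libraries. Closest to aqp3.S were st3gal5.S, a ganglioside synthase gene, at 0.49, rai1.S at 0.51 and prdm12.L, a regulator of pain-sensing neurons, at 0.57. Each of these had its lowest treated value in library b: st3gal5.S stood at 564, 66.7 and 324 in K02288/CHIR libraries and at 12.9, 18.6 and 1.24 in DMSO libraries. Such likeness over 6 libraries of 2 groups is a description, and a shared lowest library comes with the choice by likeness.

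Among the remaining aquaglyceroporin members, aqp9.L had 1 read, in DMSO library b. For aqp10.L there was 1 read in K02288/CHIR library a and 1 in DMSO library c. Both are glycerol channels in mammals, of liver and gut. The file lists a second aqp10 row, aqp10.1, outside the rule, with 1 read in DMSO library a. With so few reads, no difference between the groups was detectable at this depth for these genes.

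Among the water channels, aqp1.L was near the limit of detection. Aqp1 is the water channel of red blood cells, kidney tubules and capillaries. It had 4.71, 6.23 and 4.77 normalized counts in K02288/CHIR libraries and 0, 4.14 and 0 in DMSO libraries. All 4 DMSO reads lay in library b, just under the lowest treated library. The 17 treated against 4 DMSO reads gave a ratio of 3.76 (95% exact binomial interval 1.23 to 15.4). This ratio was 2.33 without DMSO library a, with an interval of 0.761 to 9.53. Without DMSO library b no DMSO read was left, and the ratio to a floor of 3 reads was 3.33. That last value carries no interval, so the counting error of the 17 treated reads is not in it. With the mean filter lifted, aqp1.L was not past the threshold. For aqp1.S there were 2 reads, both in K02288/CHIR library b.

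The member with reads in every library was aqp11.L. Aqp11 is an unusual aquaporin that in mammals sits in the endoplasmic reticulum, and mice without it develop kidney cysts. It fell to 1373, 996 and 981 normalized counts in K02288/CHIR libraries, against 2218, 1847 and 2054 in DMSO libraries. The highest treated library, a, was still under the lowest DMSO library. The means were 1117 ± 222 in K02288/CHIR and 2040 ± 186 in DMSO (SD, n = 3), a log2 fold of -0.88 ± 0.17 (SE). With upper quartile scaling, which raises the median fold of all genes from 0.01 to 0.30, it was -0.59. No S row of aqp11 was analysed here.

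Profiles closest to that of aqp11.L belonged to brpf3.S, a chromatin reader gene, tmed4.S, which serves transport between endoplasmic reticulum and Golgi, and sipa1l3.L, with root mean square differences of 0.03, 0.03 and 0.05 on the log2 scale. For instance tmed4.S stood at 3844, 2907 and 2825 in K02288/CHIR libraries and at 6013, 5280 and 5852 in DMSO libraries, with the same order of treated libraries. That shared order comes with the choice by likeness. Beside aqp11.L in gene order, picalm.L, a clathrin adaptor gene, rose to 596 ± 71.7 in K02288/CHIR, against 304 ± 18.3 in DMSO. On the other side, MGC68680 fell to 41.6 ± 19.5 in K02288/CHIR, against 447 ± 175 in DMSO, and the gene after it, naalad2.L, to 275 ± 118, against 1694 ± 186 in DMSO.

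**Figure D4:**
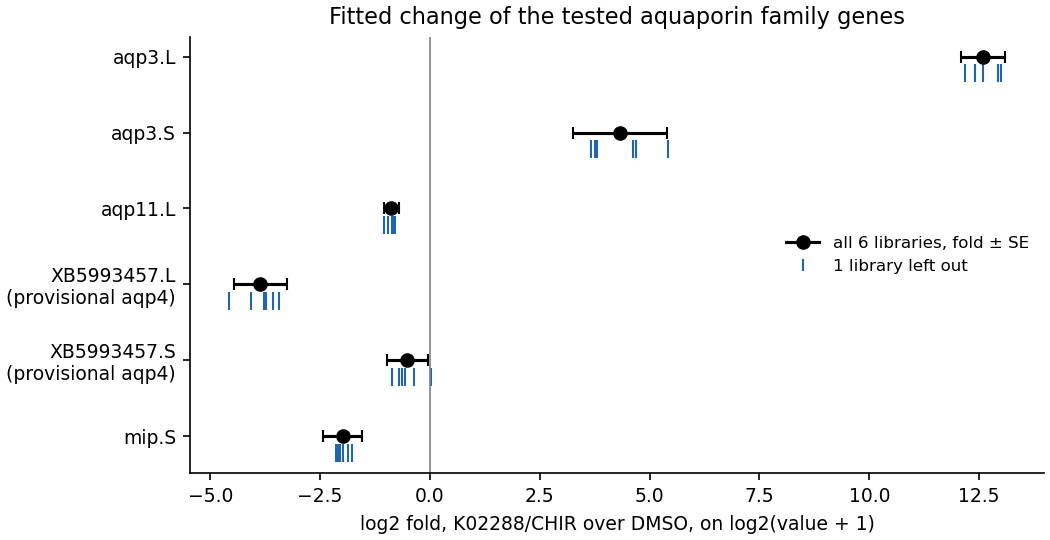
log2 fold of K02288/CHIR over DMSO on the log2(value + 1) scale for the 6 tested genes of the family. Black points with bars give the fold ± SE over 6 libraries and blue ticks the folds with 1 library left out. Ticks of aqp3.L, aqp3.S, aqp11.L, XB5993457.L and mip.S stay on 1 side of 0, while those of XB5993457.S reach it.

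Beyond the rule, 19 rows of the file carry a family name, 11 of them as a provisional annotation and 8 as mip or an aquaporin symbol of their own. No read fell on 6 of them, and 3 reached the mean filter: 2 of these were lower and 1 did not pass. Of all 22932 genes tested, 29.7% were lower and 26.1% higher. Among the 2 lower rows, mip.S reached the filter only through the DMSO group, in which it was high. Aqp4, the water channel of astrocytes and muscle in mammals, had next to no reads under its own symbol. Both copies of XB5993457, which the file annotates provisionally as aqp4, had reads, and they were chosen for description after their values were seen. That provisional name is carried by 5 rows in all, so it does not single out this pair. The others are LOC108695306 with 2 reads, LOC108718791 with 3 and LOC108707549 with none.

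XB5993457.L fell to 116, 23.1 and 28.6 normalized counts in K02288/CHIR libraries, against 473, 759 and 709 in DMSO libraries. Every treated library was below every DMSO library. Its log2 fold was -3.86 ± 0.60 (SE, n = 3 per group), and -4.57 without K02288/CHIR library a. That library had the most XB5993457.L of the treated group and also the highest epidermal marker sum given above, where 13 of 14 rows tested were lower in K02288/CHIR explants and 1 higher. Ionocytes and multiciliated cells are scattered through frog larval skin. The sum over 12 ionocyte marker rows was 1245, 237 and 248 in K02288/CHIR libraries and 36743 to 49744 in DMSO libraries, with 12 rows lower, and that over 11 multiciliated cell rows was 2263, 692 and 534 in K02288/CHIR and 36837 to 42434 in DMSO libraries, with 11 rows lower. Over 8 rows of goblet and small secretory cell markers the sum was 18806, 411 and 340 in K02288/CHIR and 64099 to 150401 in DMSO libraries, with 4 of 5 tested rows lower. By the same rule 29.7% of all 22932 genes tested were lower and 26.1% higher. Of the 12 ionocyte rows, 1 had no read in K02288/CHIR libraries. It reached the mean filter only through the DMSO group, so the direction of its call was fixed in advance. Other rows of these sets may have passed the filter in the same way, so the counts of lower rows are a description. The part of these cell types in the fall of XB5993457.L or aqp11.L was not tested.

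XB5993457.S did not follow. It had 180, 65.8 and 227 normalized counts in K02288/CHIR libraries and 172, 247 and 189 in DMSO libraries. The groups overlapped, and treated library b was the lowest. With a log2 fold of -0.52 ± 0.47 (SE) it did not pass the threshold, and the fold was 0.02 without K02288/CHIR library b. The L copy gave 39.2%, 26% and 11.2% of the reads of the pair in K02288/CHIR libraries, against 73.4%, 75.5% and 79.0% in DMSO libraries. Hence the reads of the pair were mostly S in each treated library and mostly L in each DMSO library. As for aqp3, reads aligned to more than 1 place were set aside and the lengths of the copies are not known here. The split within a library is therefore uncertain. The difference between the copies was not tested, since the pair was picked from this contrast.

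Around this pair, chmp4c, a gene of the ESCRT machinery that cuts membranes, fell for both copies. It lies beside XB5993457.S, and on the L chromosome zfand1.L stands between it and XB5993457.L. chmp4c.L reached 176 ± 88.8 in K02288/CHIR, against 1203 ± 105 in DMSO (SD, n = 3), and chmp4c.S 156 ± 52.1, against 558 ± 96.6. zfand1.L, at 161 ± 16.5 in K02288/CHIR and 182 ± 45.7 in DMSO, did not pass (limma adjusted p = 0.636). Beyond chmp4c.S, snx16.S, a sorting nexin gene, rose to 133 ± 35.0 in K02288/CHIR, against 61.3 ± 6.23 in DMSO. On the other side lies impa1, which encodes inositol monophosphatase. impa1.L fell to 824 ± 220.2 in K02288/CHIR, against 1581 ± 109 in DMSO, whereas impa1.S at 553 ± 77.4 in K02288/CHIR and 648 ± 70.9 in DMSO did not pass (limma adjusted p = 0.285). The closest profiles to XB5993457.L were those of LOC108701747 at a root mean square difference of 0.17, ubxn11.S at 0.18 and txn.L, a thioredoxin gene, at 0.20. Each was highest among treated libraries in library a, which comes with their choice by likeness. Here txn.L stood at 117, 32.0 and 33.4 in K02288/CHIR libraries and at 714, 1111 and 893 in DMSO libraries. Closest to XB5993457.S was grb7.S, an adaptor of receptor tyrosine kinases, at 0.19, with 221, 95.2 and 278 in K02288/CHIR libraries and 217, 229.9 and 237 in DMSO libraries, followed by Xelaev18005886m at 0.22 and rcor3.S at 0.24.

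The gene mip, known as aquaporin 0, encodes the main membrane protein of the lens fibre. mip.S had 5.65, 3.56 and 6.68 normalized counts in K02288/CHIR libraries and 27.6, 19.7 and 23.5 in DMSO libraries. All treated libraries were below all DMSO libraries, with a log2 fold of -1.99 ± 0.45 (SE, n = 3 per group), at a level that reached the mean filter only through the DMSO group. mip.L had no read. Among the other rows, LOC108712939, annotated provisionally as aqp9, had 6.60, 9.78 and 5.72 in K02288/CHIR and 11.0, 4.14 and 4.94 in DMSO libraries, with overlapping groups. aqp12a.S, a family member of the pancreas in mammals, had 0.942, 0.889 and 6.68 in K02288/CHIR and 0, 3.11 and 0 in DMSO libraries. aqp-xl2 had 1 read in K02288/CHIR library b and 4 in DMSO libraries. A further 5 provisional rows had 1 to 3 reads each: 2 for LOC108695306, 3 for LOC108703203, 1 for LOC108707749, 3 for LOC108717138 and 3 for LOC108718791. For aqp2.S, the vasopressin-regulated channel of the kidney, there were 2 reads, both in K02288/CHIR library c, and aqp2.L had none.

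Over all 33 rows of the family, members included, reads per 1000000 gene reads came to 183, 274 and 455 in K02288/CHIR libraries, against 73.3, 74.9 and 71.7 in DMSO libraries. The make-up of these reads changed with the sum. In K02288/CHIR libraries aqp3.L gave 70.8%, 87.5% and 91.0% of the family's reads and aqp11.L 22.2%, 11.2% and 6.43%. In DMSO libraries aqp11.L gave 76.3%, 63.8% and 68.8%, XB5993457.L 16.3%, 26.2% and 23.8%, and aqp3.L at most 0.0358%. These are shares of reads, to which longer transcripts add more.

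**Figure D5:**
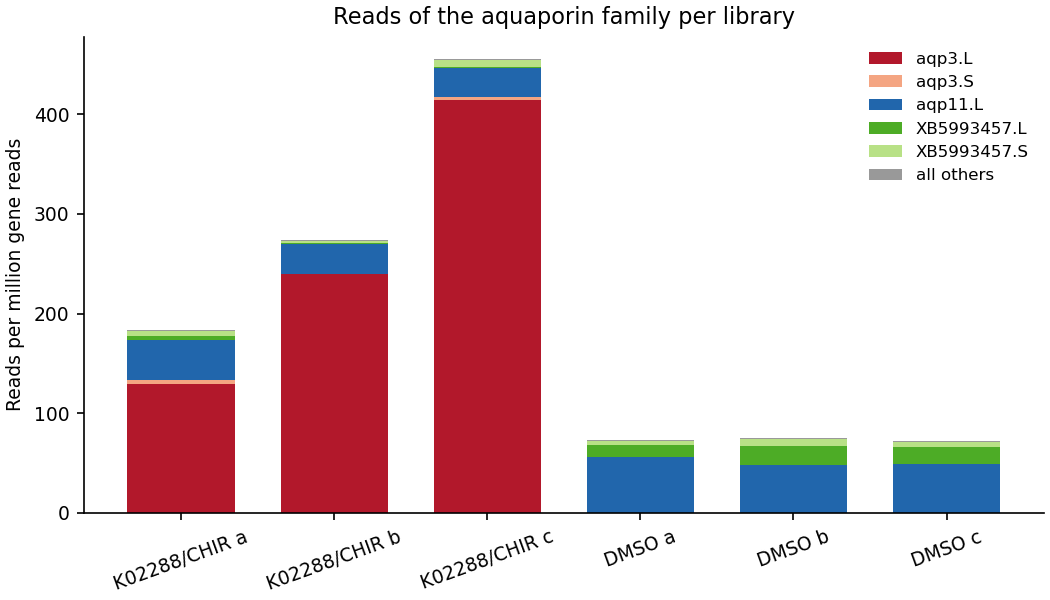
Reads of the aquaporin family per 1000000 gene reads in each library, stacked by gene, with K02288/CHIR libraries to the left of DMSO libraries. The bars reach 183, 274 and 455 in K02288/CHIR libraries and 71.7 to 74.9 in DMSO libraries, and aqp3.L fills most of the treated bars while aqp11.L fills most of the DMSO bars.

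Genes that work around aquaporins were read from 3 lists drawn from general knowledge, but chosen with earlier results of these data known. The counts and medians of these lists are therefore a description. The glycerol and solute list, which holds enzymes that make or use glycerol and the urea and ammonia channels, had 20 homeologs tested, of which 3 were higher and 10 lower in K02288/CHIR explants, against 26.1% higher and 29.7% lower of all genes. Its median log2 fold was -1.04, where all genes tested had 0.01. gk.S, a glycerol kinase gene, fell to 138 ± 21.0 normalized counts in K02288/CHIR, against 715 ± 161 in DMSO (SD, n = 3). mgll.L, whose enzyme frees glycerol from monoacylglycerol, fell to 14.2 ± 4.04, against 299 ± 6.27. Higher members were gpam.S, which starts glycerolipid synthesis, at 1717 ± 386 in K02288/CHIR, against 265 ± 25.6 in DMSO, and gk5.L at 477 ± 25.2, against 256 ± 49.9. The ammonia channel gene rhag.L had 1 read in the K02288/CHIR libraries and 89 in DMSO libraries, a ratio of 0.00995 (95% exact binomial interval 0.000249 to 0.0569). That ratio was 0.0153 without K02288/CHIR library b, and no treated read was left without library c. rhag.L, counted among the lower members, reached the mean filter only through the DMSO group, in which it was high.

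The osmotic response list, of cell volume and salt regulators, had 7 of 35 tested homeologs higher and 15 lower in K02288/CHIR explants, beside 26.1% higher and 29.7% lower of all genes tested. The median log2 fold was -0.85 in the list and 0.01 over all genes. nfat5.L, the transcription factor of the tonicity response, fell to 313, 93.4 and 104 normalized counts in K02288/CHIR libraries, against 1742, 1558 and 1518 in DMSO libraries. slc38a2.L, an amino acid transporter gene that cells raise under osmotic stress, fell to 151 ± 119, against 2903 ± 626 in DMSO (SD, n = 3), with a log2 fold of -4.53, or -5.14 without K02288/CHIR library a. nedd4l.S, a ubiquitin ligase gene that limits the epithelial sodium channel, fell to 302 ± 130.1, against 2529 ± 352. In the other direction, 2 subunit genes of the volume-regulated anion channel were higher: lrrc8c.S at 1037 ± 28.0 in K02288/CHIR, against 44.1 ± 14.9 in DMSO, and lrrc8a.L at 605 ± 71.2, against 255 ± 40.0.

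In the trafficking and anchoring list, which holds the vasopressin and cAMP pathway, vesicle proteins and the dystrophin complex that holds Aqp4 in place in mammals, 7 of 42 tested homeologs were higher and 19 lower, where 26.1% and 29.7% of all genes tested were. Its median log2 fold was -0.87, that of all genes 0.01. Higher members numbered 4 without DMSO library b, 3 without DMSO library c and 4 without K02288/CHIR library b. sntb2.S, a syntrophin gene, fell to 1011 ± 279 in K02288/CHIR, against 6285 ± 263 in DMSO (SD, n = 3). The cAMP pathway genes adcy6.L, an adenylyl cyclase, and prkar1a.L, a regulatory subunit of protein kinase A, fell to 109 ± 25.9, against 704 ± 94.9 in DMSO, and to 1306 ± 14.3, against 3353 ± 174 in DMSO. myo5b.L, a vesicle motor gene, fell to 295 ± 75.9, against 1590 ± 255. Higher were prkacb.S, a catalytic subunit of protein kinase A, at 679 ± 57.0 in K02288/CHIR, against 331 ± 20.6 in DMSO, and vamp2.L, a vesicle fusion gene, at 89.8 ± 55.0, against 13.5 ± 5.19.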

How the data were processed

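Bulk RNA sequencing of 6 libraries was analysed. The deposited values per library are a signal of normalized counts, per the file headers: read counts divided by a size factor by the authors. Of 184280 values above 0, 100% were multiples of the value of 1 read (tolerance 0.01 reads), which returned the read counts. The deposited table also holds the authors' mean signal, log2 fold with SE, Wald score, p-value and adjusted p-value. Per the submitters' processing notes the tool was DESeq, with no version. Which aligner, counting program and genome build were used is not given in the sources used here. Left out were 5 summary rows of the read counter, 16.7% to 23.7% of reads per library. In 1 row a gene name broken in 2 was rejoined.

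The members and lists were chosen with earlier results of these data known. Genes with a mean of at least 10 normalized counts were fitted with limma 3.58.1 (trend) in R 4.3.3 on log2(normalized count + 1), and p-values were adjusted by Benjamini-Hochberg over all of them. The fit was tested on simulated data that had far fewer changed genes than passed here, and smaller folds than that of aqp3.L. It was thus not tested for a contrast as broad as this one. Alternatives used other pseudocounts, filters and scaling, edgeR 4.0.16, DESeq2 1.42.0 and each library left out. Ratios of few reads carry 95% intervals that cover counting error only. Python 3.11.15, scipy 1.17.1 and matplotlib 3.10.9 made summaries and plots. Named genes were all members, all other family genes with a read, in each list the 4 most significant members past the threshold and up to 2 of the other direction, and, among genes with a mean of at least 50, the 3 closest profiles to each of the 4 tested family genes with the highest mean. The profiles near aqp3.S and the neighbours in gene order were added after the values were seen. Of the 14 members, 13 matched the RefSeq table by symbol.

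Libraries with the same column letter deviated together from their group means, with correlations of 0.326 for a, 0.402 for b and 0.319 for c. Deviations within a group cancel out for each gene, so these correlations are not independent of each other. The letters were used as a pairing in an alternative fit, and the adjusted p-values given under Results come from the fit without it. The column letters are not the replicate numbers of the titles. Protein and promoter sequences were not used here.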

Additional observations from a re-analysis of the deposited data

How the results depend on the processing

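The 2 higher and 1 lower aquaporin homeologs kept their number and direction in 13 of the 14 alternatives, the exception being a mean filter of 50, with 1 higher, since aqp3.S then falls outside. Leaving out 1 library in turn gave 2 higher and 1 lower each time, but aqp3.S stayed only just under the threshold without K02288/CHIR library c. Since the genes were picked from this contrast, these repeats are a description and support nothing. With the replicate block, 2 were higher and 1 lower again, and the calls of XB5993457.L and mip.S held as well; the block changed no call of a gene named in the report. With all libraries kept, the fold of aqp3.L ran from 10.82 with a pseudocount of 4 to 14.49 with DESeq2 on the recovered reads, and that of aqp3.S from 3.26 to 5.19 with the same settings. With 1 library left out, that of aqp3.S ran from 3.67 to 5.43. In the trafficking and anchoring list, higher members numbered 4 with a mean filter of 50 and 3 to 6 with 1 library left out; the cause was not tested. No fold of a called gene named in the report changed sign in these alternatives. The call of snx16.S was lost without DMSO library c (limma adjusted p = 0.058) and without K02288/CHIR library c (limma adjusted p = 0.060). Log2 folds that did not pass and changed sign with upper quartile scaling were 0.060 for impa1.S, 0.088 for rcor3.S, 0.22 for ube2r2, 0.056 for ube2r2.L and 0.14 for zfand1.L. With 1 library left out, such folds ran from -0.87 to 0.015 for XB5993457.S, -0.65 to 0.12 for grb7.S, -0.53 to 0.23 for rcor3.S, -0.23 to 0.13 for ube2r2 and -0.29 to 0.044 for zfand1.L. Depth limits the members with 0 to 2 reads, whose differences could not be measured, and leaves the ratio of aqp1.L, with 21 reads, a wide interval.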
